A study of Mus musculus with 8 samples.

Results

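Genes of the extracellular Wnt system were followed in knee articular cartilage of mice 7 days after transection of the anterior cruciate ligament (ACLT). Members were the protein-coding genes of the deposited expression table whose symbols are Wnt, Fzd, Sfrp, Dkk or Rspo followed by a digit, together with Frzb, Wif1, Sost, Lrp5, Lrp6, Axin2, Lef1, Tcf7, Lgr4, Lgr5 and Lgr6. The set was chosen with earlier results of these data known, so its counts beside those of all genes describe it and do not test it. The rule used symbols and gene type only, no measured value. It found 46 members among 20539 genes, namely 14 Wnt ligands, 12 Frizzled and LRP receptors, 10 secreted inhibitors, 7 R-spondins and LGR receptors, and 3 genes of the nuclear response and its feedback (Tcf7, Lef1 and Axin2). A long noncoding RNA, Fzd10os, carries a matching symbol and was left out because it is not protein-coding.

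Wnt ligands are secreted glycoproteins that bind Frizzled receptors, and with the co-receptors Lrp5 and Lrp6 they protect beta-catenin from destruction so that it can act with TCF/LEF factors on target genes such as Axin2. Secreted frizzled-related proteins (Sfrp genes and Frzb) and Wif1 bind the ligands outside the cell, whereas Dkk1 and sclerostin, the product of Sost, block the co-receptors. R-spondins act through LGR receptors to keep Frizzled receptors on the cell surface, which amplifies the response. In joints this pathway is known from bone formation, from the maintenance of the articular chondrocyte, and from the osteoarthritis-prone cartilage of mice that lack Frzb.

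C57BL/6J mice of both sexes, 4 to 5 months old, underwent ACLT in a single hind limb, and the other hind limb of the same mice was the control. From then on they received subcutaneous injections, 2 per week at 10 mg/kg, of a placebo antibody (PLA Ab) or of a human monoclonal antibody against GDF8 (GDF8 Ab), the muscle growth inhibitor also called myostatin. For the antibody treatments the methods of the study name Col1-eGFP mice beside C57BL/6J mice. The injured limb (ACLT) and the other limb (control) of each antibody give 4 groups, named by antibody and limb. Each holds 2 libraries, pool A and pool B, and all carry an injury in the mouse from which they come, so that control limbs are not limbs of uninjured mice. The methods of the study give 4 limbs per pool and 8 mice per treatment, whereas the series text can be read as 4 mice per treatment. A p-value therefore measures the spread between pools. All 8 samples are labelled as cartilage in the title and tissue fields, and a treatment field of the 4 control samples names the quadriceps instead.

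Levels are counts per 1e+06 reads of the table (CPM), at an estimated depth of 16.4 to 28.1 M (1e+06) reads per library and a median of 20.1 M. Chondrocyte markers made up 0.323% to 0.363% of reads in placebo control and 0.770% to 0.793% in placebo ACLT. With anti-GDF8 they made up 0.263% to 0.284% in control limbs and 0.354% to 0.441% in ACLT limbs. Prg4 was the largest part of this sum in every pool but placebo control pool B, where Col2a1 was. Prg4 had 2231 and 1202 CPM in placebo control against 6123 and 6881 CPM in placebo ACLT. Erythroid markers made up 6.95% to 13.2% and neutrophil markers 2.15% to 3.57%, with all markers of each list detected. Among control limbs, skeletal muscle fiber markers took 2.79% to 6.75% of reads with placebo and 1.57% to 2.60% with anti-GDF8, and among ACLT limbs 0.0245% to 0.0494% with placebo but 0.203% to 3.12% with anti-GDF8. Fibroblast markers took 0.0889% to 0.241% of reads in the 4 control libraries, 1.20% to 1.22% in ACLT limbs given placebo, and 0.513% to 0.584% in those given anti-GDF8. Macrophage markers took 0.0602% to 0.0697% in the 4 control libraries. In ACLT limbs macrophage markers took 0.135% to 0.152% with placebo and 0.0995% to 0.102% with anti-GDF8. Osteoblast and osteocyte markers took 0.327% to 0.843% of reads in placebo control and 0.874% to 2.16% in placebo ACLT. Col1a1 was the largest part of their sum in every pool, with 2138 and 7284 CPM in placebo control and 17912 and 6874 CPM in placebo ACLT. With anti-GDF8 the osteoblast and osteocyte markers took 0.204% to 0.509% in control limbs and 0.374% to 0.569% in ACLT limbs. In such bulk RNA, fewer cells of a type and less RNA per cell cannot be told apart. Changes were tested on log2(reads at the median depth + 1 read), with limma over the 17401 genes whose mean reached 10 reads (0.498 CPM), and a gene is called at a Benjamini-Hochberg adjusted p under 0.05. Fold changes on that scale understate the change of genes with few reads.

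Secreted inhibitors were the most abundant class. Per kb of exon, averaged over all 8 libraries, the Wnt-binding inhibitor Wif1 stood at 31.7 CPM per kb, Sfrp4 at 23.1 and Dkk3 at 12.0, and the highest receptor, Fzd9, followed at 4.56 CPM per kb. Next came Sfrp2 at 4.06, Frzb at 4.00 and the T cell factor Tcf7 at 3.47 CPM per kb. Rspo2 at 2.70 and Lgr6 at 2.51 CPM per kb led the R-spondins and their receptors. The order differed between groups, so that Sfrp4 exceeded Wif1 in placebo ACLT (45.3 against 41.4 CPM per kb) and anti-GDF8 ACLT (30.2 against 23.2). Fzd1 exceeded Fzd9 in placebo ACLT (3.85 against 3.09 CPM per kb), and Lgr6 exceeded Rspo2 in the control limbs of placebo (2.85 against 1.44) and anti-GDF8 (3.10 against 1.10). Ligands lay lower, led by Wnt5b at 1.59, Wnt11 at 1.20 and Wnt4 at 0.942 CPM per kb. Wnt5b and Wnt11 are known mainly for signaling that does not depend on beta-catenin. Wnt5b shares 2963 bases on the opposite strand with Fbxl14, whose mean was 19.5 CPM, and the strandedness of the counting is not given, so reads of the pair cannot be told apart. Of the 46 members, 37 passed the filter on the mean over all libraries. The 9 that did not were Wnt1, Wnt2, Wnt2b, Wnt6, Wnt7b, Wnt9b, Wnt10a, Wnt16 and Fzd10, with means of 0.134 to 0.451 CPM. Their highest level in any pool was 1.10 CPM, for Wnt10a in placebo ACLT pool A, and Wnt2 and Wnt9b are listed at 0 in 5 of 8 libraries.

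**Figure D1:**
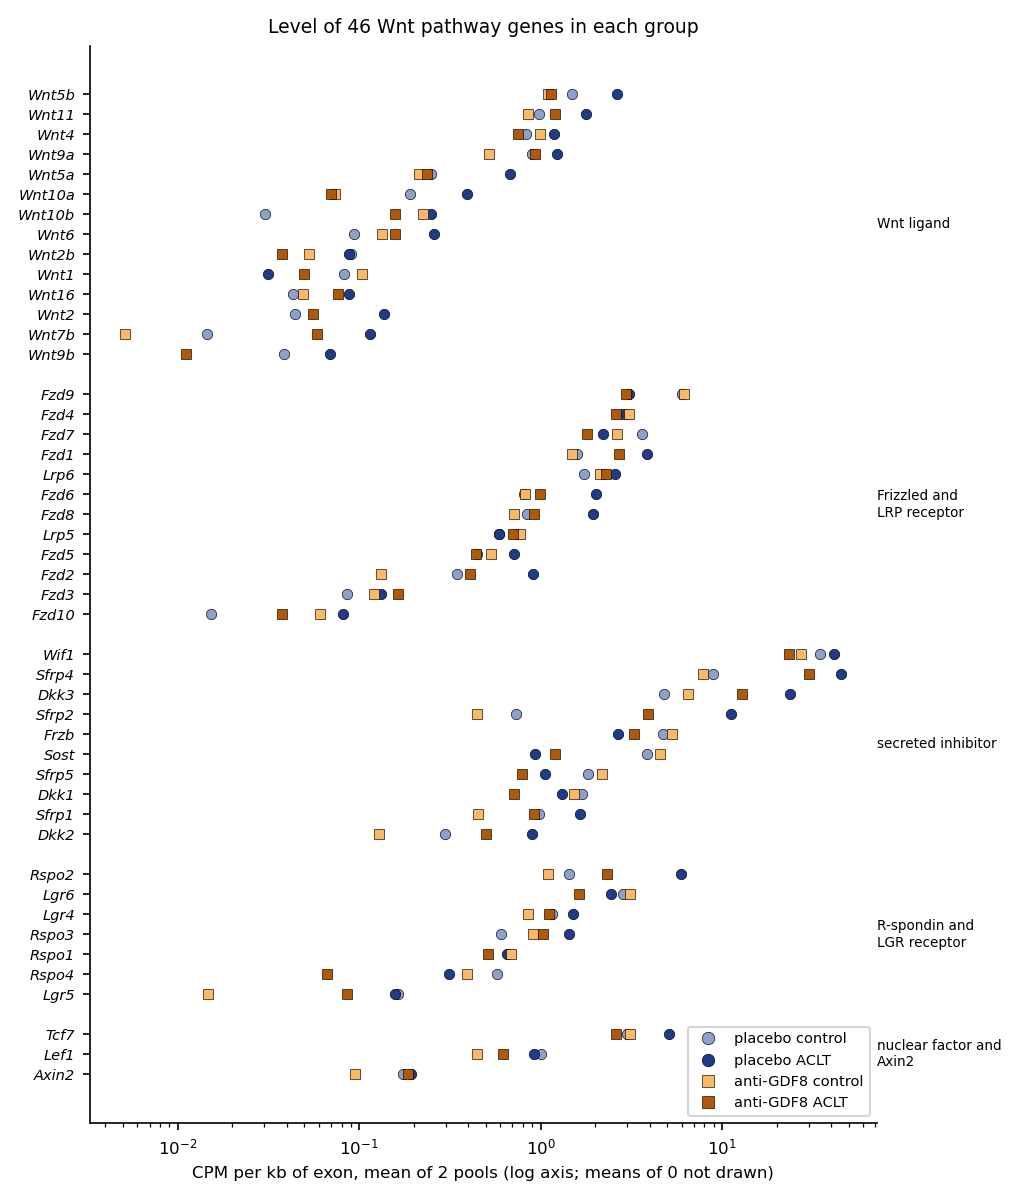
Level of the 46 Wnt pathway genes in each group, as the mean CPM per kb of exon of 2 pools on a log axis, ordered within each class by the mean over all groups (circles, placebo; squares, anti-GDF8; light, control; dark, ACLT; group means of 0 are not drawn). Within each group Wif1 and Sfrp4 lie to the right of every receptor and ligand, Dkk3 does so in all but the placebo control group, and the dark blue circle of Sfrp2 lies far to the right of its light symbols.

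In placebo-treated animals, ACLT raised 3 secreted inhibitors (Sfrp2, Sfrp4 and Dkk3), 3 Frizzled receptors (Fzd1, Fzd6 and Fzd8), the amplifier Rspo2 and the ligand Wnt10b, and lowered a single member, Sost. These are 8 rises and 1 fall among 37 tested members (limma, 2 pools per group), beside 11.6% of all tested genes called higher, 4.03% called lower and 15.6% called in either direction. The median log2 fold change was 0.59 over the tested members and 0.17 over all tested genes, and 28 of 37 members had a positive value, beside 61.7% of all genes. Both ACLT pools lay above both control pools for 19 members (38.8% of all genes) and below them for 6 (19.4%). Rescaling by a trimmed mean or by quantiles lowered the median of all genes to 0.03 and 0.01 and that of the members to 0.45 and 0.35, and after quantile normalization the members called were 6 higher and 2 lower. Without placebo ACLT pool A the members' median was 0.35. The count of 9 fell to 4 without placebo control pool B, to 3 without placebo ACLT pool A and to 4 without placebo ACLT pool B.

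**Figure D2:**
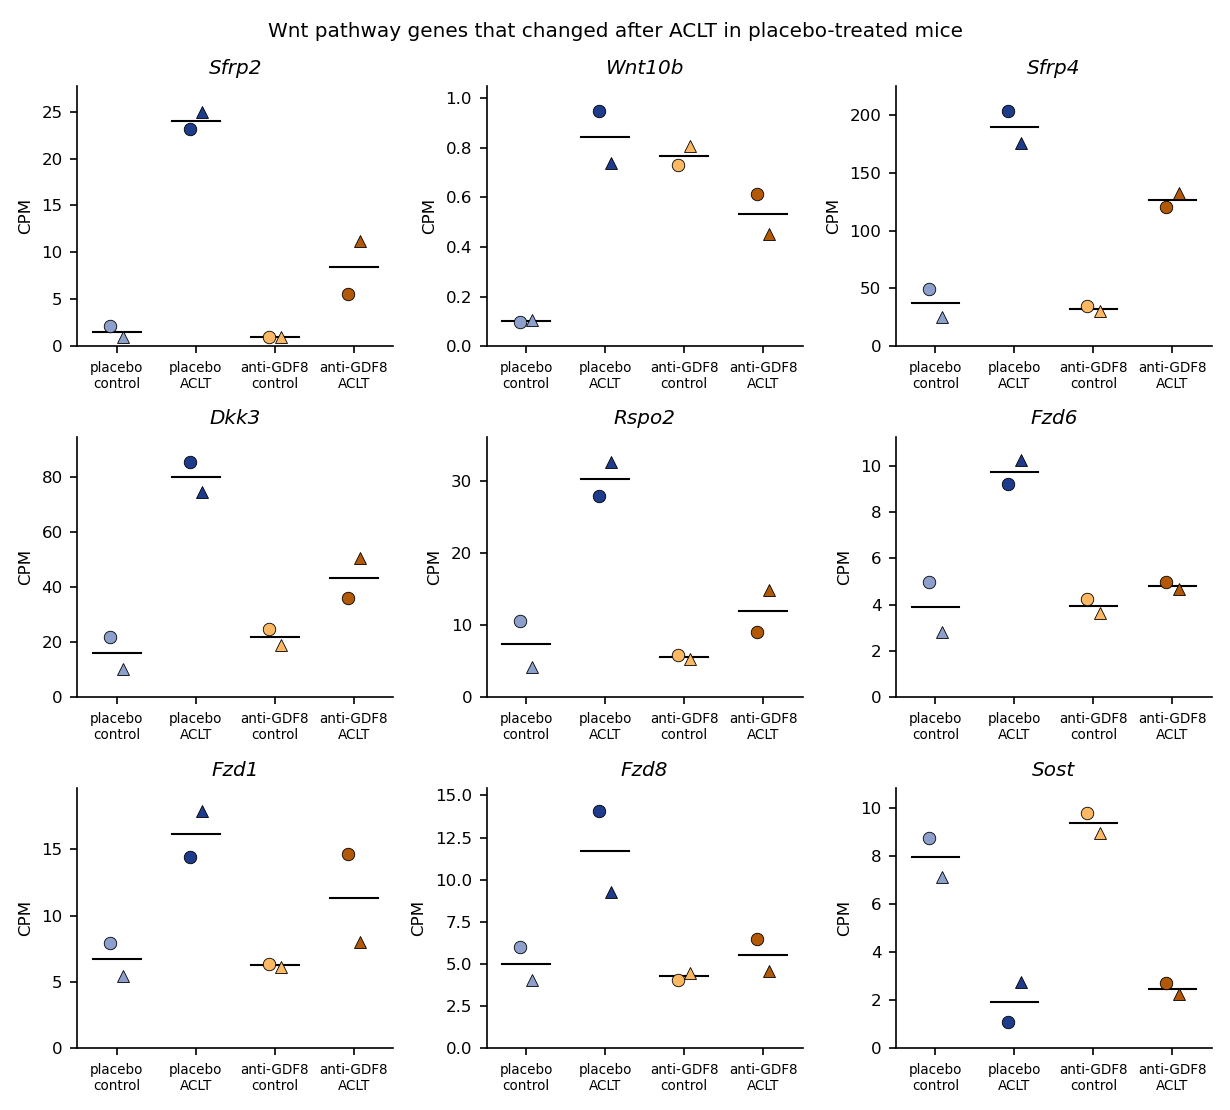
CPM of the 9 members called after ACLT in placebo-treated mice, in each group (circle, pool A; triangle, pool B; horizontal line, mean of the 2 pools; every axis starts at 0). Sfrp2 stands at 23.1 and 25.0 CPM in the placebo ACLT pools and at 2.14 CPM or less in all 4 control pools, whereas Sost is lower in all 4 ACLT pools than in all 4 control pools.

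Sfrp2, an inhibitor that binds Wnt ligands and is made by fibroblasts and other stromal cells (ENSMUSG00000027996, chromosome 3, 83673628 to 83681623, mm39), had the largest rise of the tested members. Its level was 2.14 CPM in pool A and 0.996 in pool B of placebo control, and 23.1 and 25.0 CPM in placebo ACLT. The ACLT pools were 15.3-fold higher in the mean and did not overlap with the control pools, with a log2 fold change of 3.99 ± 0.44 SE (adjusted p = 0.00149). Sfrp4, a relative with a netrin-like domain (ENSMUSG00000021319, chromosome 13, 19807274 to 19817164), had 49.5 and 25.4 CPM in control limbs against 203 and 175 CPM in ACLT limbs. It was thus 5.06-fold higher after ACLT, and its log2 fold change was 2.41 ± 0.27 SE (adjusted p = 0.00154). Dkk3, a divergent Dickkopf family member without the firm LRP-blocking role of Dkk1 (ENSMUSG00000030772, chromosome 7, 111715224 to 111758264), rose from 22.0 and 10.3 CPM to 85.3 and 74.3 CPM, a log2 fold change of 2.40 ± 0.33 SE (adjusted p = 0.00337). These 3 calls held with each of the 8 libraries left out in turn. They moved beside the fibroblast markers, of which 8 of 10 rose in this comparison and none is at 0 in every library. Macrophage markers moved the same way, with 6 of 7 called higher and a median log2 fold change of 1.30. Per 1000 CPM of fibroblast markers, Sfrp2 went from 0.888 and 1.12 CPM in control limbs to 1.89 and 2.08 CPM in ACLT limbs, whereas Sfrp4 went from 20.6 and 28.6 to 16.6 and 14.7 CPM. Dkk3 on the same scale went from 9.13 and 11.6 to 6.97 and 6.21 CPM. Relative to the fibroblast markers, then, Sfrp2 alone of the 3 was higher in both ACLT pools. Per 1000 CPM of chondrocyte markers all 3 were higher in both ACLT pools. There Sfrp4 went from 15.33 and 7.001 to 26.41 and 22.13 CPM, and Dkk3 from 6.802 and 2.834 to 11.08 and 9.373 CPM. Per 1000 CPM of osteoblast and osteocyte markers Sfrp2 was again higher, and the pools of Sfrp4 and Dkk3 overlapped. The direction of Sfrp4 and Dkk3 thus depends on the reference.

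Sost, which encodes the osteocyte product sclerostin (ENSMUSG00000001494, chromosome 11, 101853284 to 101857841), was the only member called lower. It stood at 8.75 and 7.15 CPM in control limbs against 1.10 and 2.76 CPM in ACLT limbs. The ACLT pools were 4.12-fold lower in the mean, with a log2 fold change of -2.15 ± 0.42 SE (adjusted p = 0.0117). The osteoblast and osteocyte markers as a list went the other way, with 8 of 9 tested genes positive, 1 called higher and a median log2 fold change of 0.53. Of 3 other osteocyte genes, Mepe was lower in both ACLT pools, and Dmp1 and Phex had overlapping pools. The osteocyte matrix gene Dmp1 stood at 52.4 and 62.5 CPM in control limbs against 114 and 59.7 CPM in ACLT limbs, and Phex, a membrane endopeptidase of osteocytes, at 9.94 and 9.68 against 15.6 and 9.18 CPM. Mepe, another osteocyte matrix protein, went from 23.2 and 19.9 to 10.4 and 14.5 CPM. The Sost call was lost without placebo control pool A (-2.00, adjusted p = 0.0505), placebo control pool B (-2.29, adjusted p = 0.0608) or placebo ACLT pool A (-1.50, adjusted p = 0.0592).

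The other 6 inhibitors were not called. Wif1 had 98.1 and 69.9 CPM in control limbs against 110 and 91.4 CPM in ACLT limbs, ranges that overlap, and its log2 fold change of 0.27 had a 95% interval of -0.38 to 0.92. Frzb, the inhibitor best known from cartilage, had 17.4 and 13.2 CPM in control limbs and 9.52 and 7.85 CPM in ACLT limbs. Both ACLT pools were thus lower, at a log2 fold change of -0.81 that did not pass (adjusted p = 0.117). Dkk2, an LRP-binding relative of Dkk1, was at 1.59 (adjusted p = 0.116), Sfrp1 at 0.73 (adjusted p = 0.194), Dkk1 at -0.37 (adjusted p = 0.731) and Sfrp5 at -0.82 (adjusted p = 0.245). Among the 10 inhibitors, 6 had a positive and 4 a negative log2 fold change.

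The ligand Wnt10b, which signals through beta-catenin and is known to favor bone formation over fat (ENSMUSG00000022996, chromosome 15, 98668593 to 98676031), was a scarce transcript. It had 0.0994 and 0.107 CPM in the placebo control pools, which are 2 and 3 reads, and 0.947 and 0.739 CPM, or 19 reads each, in the placebo ACLT pools. From 38 against 5 reads the ratio was 8.01, with an exact 95% interval of 3.15 to 26.1 that covers counting error only. The mean of Wnt10b over all libraries was 0.562 CPM, and without the placebo ACLT pools it would not reach the filter of 0.498 CPM. The call therefore adds no support to the count of 8 rises. In the fit its log2 fold change was 2.54 ± 0.60 SE (adjusted p = 0.0236), and it was lost without placebo control pool B (adjusted p = 0.0808), placebo ACLT pool A (adjusted p = 0.131) or placebo ACLT pool B (adjusted p = 0.0777). With only the 4 libraries compared it was not called either (adjusted p = 0.0679). Wnt11, the ligand with the highest mean CPM, had 3.53 and 4.63 CPM in control limbs and 4.74 and 9.95 CPM in ACLT limbs. Its pools did not overlap, but the log2 fold change of 0.76 did not pass (adjusted p = 0.275). Wnt5a, which acts through Ror receptors as well as Frizzled receptors, went from 2.34 and 1.57 to 4.44 and 6.18 CPM, and its log2 fold change of 1.43 missed the threshold (adjusted p = 0.0516). It passed in some of the alternative fits, for instance with voom weights (1.50, adjusted p = 0.0326). The remaining tested ligands, Wnt4, Wnt5b and Wnt9a, had log2 fold changes of 0.45 to 0.71, and none passed.

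Of the receptors, 3 Frizzled genes rose. Fzd6, linked mainly to planar cell polarity (ENSMUSG00000022297, chromosome 15, 38869429 to 38901583), went from 4.97 and 2.81 CPM to 9.22 and 10.2 CPM, a log2 fold change of 1.36 ± 0.32 SE (adjusted p = 0.0241). It overlaps 152 bases of the antisense RNA Gm26704, which averaged 0.117 CPM. Fzd1 (ENSMUSG00000044674, chromosome 5, 4803839 to 4808035) went from 7.95 and 5.44 CPM to 14.4 and 17.9 CPM, a log2 fold change of 1.28 ± 0.33 SE (adjusted p = 0.0314). Fzd8 (ENSMUSG00000036904, chromosome 18, 9212163 to 9218136) stood at 6.01 and 4.02 CPM in control limbs against 14.1 and 9.29 CPM in ACLT limbs, a log2 fold change of 1.21 ± 0.33 SE (adjusted p = 0.0412). In all 3 genes both ACLT pools lay above both control pools in CPM. Per 1000 CPM of fibroblast markers both ACLT pools lay below both control pools instead, with Fzd6 going from 2.06 and 3.16 to 0.754 and 0.854 CPM, Fzd1 from 3.30 and 6.12 to 1.18 and 1.49 CPM, and Fzd8 from 2.498 and 4.52 to 1.15 and 0.776 CPM. Per 1000 CPM of chondrocyte markers the ACLT and control pools overlapped for all 3 genes. Prg4 was the largest part of that marker sum in both ACLT pools. Of the 10 chondrocyte markers, 5 had a positive and 5 a negative log2 fold change. All 3 calls were lost without placebo control pool B, placebo ACLT pool A or placebo ACLT pool B, where the log2 fold changes were 0.96, 1.44 and 1.29 for Fzd6, 1.01, 1.44 and 1.12 for Fzd1, and 0.92, 0.91 and 1.51 for Fzd8. Fzd1 and Fzd8 also lost their calls without either anti-GDF8 control pool (adjusted p of 0.0515 to 0.0660), with quantile normalization (1.08 and 1.01) and in a fit without an intensity trend (adjusted p = 0.0659 and 0.0638).

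The co-receptor Lrp6, the receptor gene with the highest mean CPM, had 26.8 and 20.6 CPM in control limbs against 32.7 and 37.9 CPM in ACLT limbs. Its log2 fold change of 0.58 missed the threshold (adjusted p = 0.0579) and passed without placebo control pool A (0.77, adjusted p = 0.0237). Its partner Lrp5 was at 0.06, with a 95% interval of -0.74 to 0.86. Fzd9 and Fzd7 pointed the other way. Fzd9, the most abundant receptor per kb, went from 10.3 and 17.2 to 7.23 and 6.92 CPM (log2 fold change -0.91, adjusted p = 0.0586), and Fzd7 from 13.9 and 19.0 to 11.3 and 8.83 CPM (-0.70, adjusted p = 0.119). Neither passed, although the pools did not overlap, and Fzd9 passed after quantile normalization (-1.11, adjusted p = 0.0442) and without placebo control pool A (-1.28, adjusted p = 0.0182). Fzd2 was at 1.35 (adjusted p = 0.0732), and the other tested receptors, Fzd3, Fzd4 and Fzd5, lay between 0.08 and 0.60.

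Rspo2, an R-spondin that amplifies Wnt signaling through LGR receptors (ENSMUSG00000051920, chromosome 15, 42884190 to 43034222), rose from 10.5 and 4.20 CPM to 27.9 and 32.6 CPM. The pools did not overlap, and the log2 fold change was 2.17 ± 0.41 SE (adjusted p = 0.0104). Per 1000 CPM of fibroblast markers it went the other way, from 4.38 and 4.72 to 2.28 and 2.72 CPM. Per 1000 CPM of chondrocyte markers Rspo2 went from 3.26 and 1.16 to 3.63 and 4.11 CPM, so its direction depends on the reference. The call was lost without placebo ACLT pool A (log2 fold change 2.28, adjusted p = 0.0662) or pool B (2.06, adjusted p = 0.0705). The receptor Lgr6, highest of this class by mean CPM, had 22.5 and 16.5 CPM in control limbs and 19.2 and 14.2 CPM in ACLT limbs, with overlapping pools and a log2 fold change of -0.23 (95% interval -0.88 to 0.43). Rspo3 was at 1.21 (adjusted p = 0.167), Lgr4 at 0.36 and Rspo1 at -0.05, and none of them passed. Rspo4 and Lgr5 varied between pools of the same group, with 0.0497 and 2.67 CPM of Rspo4 and 3.08 and 0.285 CPM of Lgr5 in placebo control.

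The genes of the nuclear response were not called. Tcf7, which encodes the T cell factor TCF1, had 7.41 and 8.40 CPM in control limbs against 12.5 and 14.5 CPM in ACLT limbs, with a log2 fold change of 0.76 (adjusted p = 0.0944). Lef1 was at -0.16 (95% interval -0.85 to 0.54). Axin2, a feedback inhibitor widely read as a reporter of beta-catenin signaling, had 1.29 and 0.641 CPM in control limbs and 1.20 and 0.933 CPM in ACLT limbs. Its pools overlapped, and the log2 fold change of 0.20 had a 95% interval of -1.01 to 1.41, so a change of 2-fold in either direction was within that interval.

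**Figure D3:**
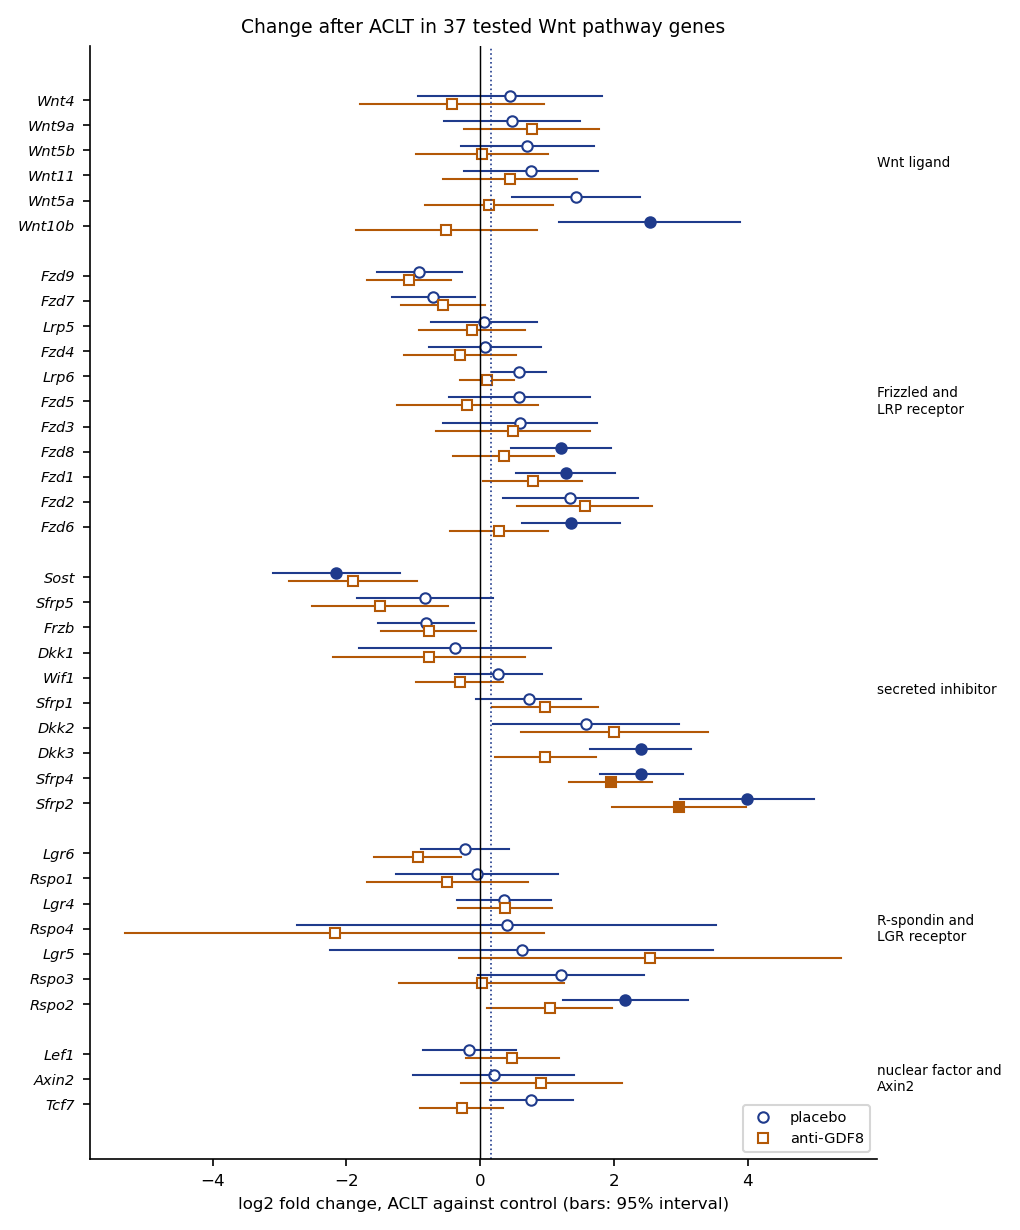
Log2 fold change of ACLT against control limbs for the 37 tested members, by class (circles, placebo; squares, anti-GDF8; bars, 95% intervals; filled symbols, adjusted p under 0.05; dotted line, median of all tested genes with placebo at 0.17). Of the squares only Sfrp2 and Sfrp4 are filled, and the circles run from -2.15 for Sost to 3.99 for Sfrp2.

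Genes around the members in the pathway were taken from 5 lists, whose counts stand beside 11.6% of all tested genes called higher and 4.03% called lower in placebo-treated animals. The lists too were chosen with earlier results of these data known, so these counts are descriptions. Of 11 tested genes for ligand secretion and extracellular modifiers, 5 rose and none fell, with a median log2 fold change of 0.82. They were led by Cthrc1, a secreted glycoprotein of remodeling tissue that binds Wnt and Frizzled proteins, which went from 7.36 and 15.6 CPM to 133 and 99.5 CPM (3.42, adjusted p = 0.00341). Igfbp4 rose by 0.85 (adjusted p = 0.0114), Wls, the carrier that brings Wnt ligands to the cell surface, by 0.77 (adjusted p = 0.0181), and the membrane inhibitor Apcdd1 by 1.71 (adjusted p = 0.0262) on the log2 scale. Of 8 co-receptors and genes of receptor turnover, 5 rose, among them the Wnt-binding receptor Ryk at 1.45 (adjusted p = 0.00589), the Wnt5a receptor Ror2 at 2.00 (adjusted p = 0.0110) and the polarity receptor Ptk7 at 1.20 (adjusted p = 0.0213). The single fall there was that of Musk, the muscle receptor of the neuromuscular junction, at -3.88 (adjusted p = 0.0102), beside 11 of 12 muscle fiber markers that also fell. Of 11 planar cell polarity genes 3 rose, Prickle2 at 1.56 (adjusted p = 0.0233), Daam2 at 1.18 (adjusted p = 0.0388) and Dact3 at 1.94 (adjusted p = 0.0483), and Dact1 did not pass at 1.02 (adjusted p = 0.0824).

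In the beta-catenin cascade, 1 of 25 tested genes was called, the transcriptional corepressor Tle2 at 1.05 (adjusted p = 0.0130), and the median of the list, 0.17, equalled that of all tested genes to 2 decimals. Beta-catenin itself, Ctnnb1, was at 0.50 (adjusted p = 0.0780), Tcf7l1 at 0.69 (adjusted p = 0.0751) and the inhibitor Ctnnbip1 at 0.64 (adjusted p = 0.0814), and none of these passed. Of 11 widely used target genes 4 rose, namely Ccn5 at 2.76 (adjusted p = 0.00210), the cell cycle driver Ccnd1 at 1.36 (adjusted p = 0.00492), the feedback inhibitor Nkd2 at 1.71 (adjusted p = 0.0342) and Fosl1, a FOS family factor (adjusted p = 0.0338). Fosl1 had 0.0526 and 0 CPM in placebo control against 0.779 and 1.11 CPM in placebo ACLT, too few control reads for a fold. Both anti-GDF8 control pools were at 0 CPM, so Fosl1 passed the filter only through ACLT limbs. Its call therefore adds no support to the count of 4. These target genes answer to other pathways as well, and the member Axin2, also a target, was not called.

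The stretches before the start sites of called members are shown because beta-catenin acts through TCF/LEF sites and GDF8 through SMAD2 and SMAD3. In the RefSeq promoter table of GRCm38.p6, 31 of 46 members and 4 of the 9 called members were found, the latter being Sfrp2, Fzd1, Wnt10b and Sost. The 250 bases upstream of the start site lie at chr3:83766071-83766320 on the + strand for Sfrp2, chr5:4758217-4758466 on the - strand for Fzd1, chr15:98778151-98778400 on the - strand for Wnt10b and chr11:101967016-101967265 on the - strand for Sost. They read 5′ to 3′ along the gene, with capitals for matches on either strand to CTTTGA, a core of TCF/LEF sites, or CAGAC, a SMAD box.
Sfrp2: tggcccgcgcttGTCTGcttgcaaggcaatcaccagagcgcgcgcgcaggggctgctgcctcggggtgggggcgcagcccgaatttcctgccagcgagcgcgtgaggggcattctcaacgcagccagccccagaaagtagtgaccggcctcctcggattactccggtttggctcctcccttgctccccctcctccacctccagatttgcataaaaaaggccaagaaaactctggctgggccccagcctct
Fzd1: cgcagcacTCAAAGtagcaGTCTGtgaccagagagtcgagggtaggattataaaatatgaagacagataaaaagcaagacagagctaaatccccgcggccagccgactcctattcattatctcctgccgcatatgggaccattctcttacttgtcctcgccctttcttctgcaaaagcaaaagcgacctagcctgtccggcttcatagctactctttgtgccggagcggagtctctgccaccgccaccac
Wnt10b: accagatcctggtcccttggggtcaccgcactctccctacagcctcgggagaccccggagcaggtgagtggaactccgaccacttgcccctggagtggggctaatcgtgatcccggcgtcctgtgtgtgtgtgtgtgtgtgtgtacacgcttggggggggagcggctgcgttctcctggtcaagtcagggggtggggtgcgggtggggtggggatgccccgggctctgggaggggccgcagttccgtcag
Sost: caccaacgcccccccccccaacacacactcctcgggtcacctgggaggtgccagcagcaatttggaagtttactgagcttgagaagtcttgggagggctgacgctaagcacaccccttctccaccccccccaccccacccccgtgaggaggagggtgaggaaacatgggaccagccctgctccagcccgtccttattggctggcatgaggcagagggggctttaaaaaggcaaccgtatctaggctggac
Sfrp2 holds a single SMAD box, 238 bases before the start, and Fzd1 a TCF/LEF core 242 bases and a SMAD box 231 bases before it, whereas neither motif is in the windows of Wnt10b and Sost. The 2 motifs do not overlap each other. The TCF/LEF core was found in 6 of 38 promoters of the members (15.8%), beside 13.8% of 32851 promoters in the table, and the SMAD box in 15 of 38 (39.5%), beside 42.2%. A match is a description of these letters and not a site known to be used.

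In anti-GDF8–treated animals, ACLT raised Sfrp2 and Sfrp4, and no member was called lower. These are 2 rises among 37 tested members, beside 0.598% of all tested genes called higher, 0.0115% called lower and 0.609% called in either direction. An unadjusted p under 0.05 was found for 13 members (10.1% of all genes). The median log2 fold change was 0.11 over the tested members and -0.04 over all tested genes, and 21 members had a positive value (44.4% of all genes). Without anti-GDF8 control pool A the members' median was -0.05 with 18 positive, and without pool B it was 0.31 with 24 positive. Both ACLT pools lay above both control pools for 14 members (20.2% of all genes) and below them for 9 (23.8%). Sfrp2 stood at 0.973 and 0.959 CPM in anti-GDF8 control and at 5.60 and 11.2 CPM in anti-GDF8 ACLT. The ACLT pools were 8.69-fold higher in the mean, with a log2 fold change of 2.97 ± 0.44 SE (adjusted p = 0.0268). Sfrp4 had 34.5 and 30.7 CPM in control limbs and 121 and 132 CPM in ACLT limbs, a log2 fold change of 1.95 ± 0.27 SE (adjusted p = 0.0232). Fibroblast markers, of which 2 of 10 rose here, moved in the same direction, and Sfrp2 per 1000 CPM of them was 0.964 and 0.885 CPM in control limbs and 0.959 and 2.18 CPM in ACLT limbs, which overlap. Macrophage markers also moved in this direction, with 3 of 7 called higher. The part of either cell type in the result was not tested. Per 1000 CPM of chondrocyte markers Sfrp2 was 0.370 and 0.338 CPM in control limbs and 1.27 and 3.16 CPM in ACLT limbs. The Sfrp2 and Sfrp4 calls were both lost without placebo ACLT pool A or B (highest adjusted p = 0.0898) and without anti-GDF8 control pool A or B (highest adjusted p = 0.211), and Sfrp4 also without anti-GDF8 ACLT pool A (2.02, adjusted p = 0.0530). No trend in the fit left neither called (adjusted p = 0.135 and 0.142), and Sfrp2 was not called with voom weights (2.94, adjusted p = 0.123) or with only the 4 libraries compared (adjusted p = 0.0934).

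The other members that rose with placebo had smaller values with anti-GDF8, and none passed. Dkk3 stood at 24.6 and 18.9 CPM in control limbs and 36.0 and 50.4 CPM in ACLT limbs (0.98, adjusted p = 0.352), and Rspo2 at 5.90 and 5.30 against 9.04 and 14.8 CPM (1.04, adjusted p = 0.438). In both genes the ACLT pools were higher without overlap. Among the receptors, Fzd6 had 4.26 and 3.63 CPM in control limbs and 4.96 and 4.67 CPM in ACLT limbs (0.29, adjusted p = 0.830). Fzd8 had 4.07 and 4.44 against 6.47 and 4.57 CPM (0.35, adjusted p = 0.792), and Fzd1 6.39 and 6.11 against 14.6 and 8.03 CPM (0.79, adjusted p = 0.462). Fzd1 in anti-GDF8 ACLT pool A thus lay within the range of the placebo ACLT pools. Sost had 9.79 and 8.99 CPM in control limbs and 2.71 and 2.26 CPM in ACLT limbs, lower in both pools, and its log2 fold change of -1.90 did not pass (adjusted p = 0.112). Wnt10b moved in the other direction, from 0.730 and 0.808 CPM to 0.615 and 0.452 CPM, or 26 against 28 reads (log2 fold change -0.50, adjusted p = 0.840). It was the only member whose pools separated in opposite directions under the 2 antibodies. This is 1 of 37, beside 4.24% of all tested genes. For 11 members both ACLT pools were higher under each antibody (16% of all tested genes), and for 5 both were lower under each (6.72%). These 5 were Sost, Frzb, Sfrp5, Fzd7 and Fzd9.

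Of the members not called in either injury comparison, Fzd9 went from 15.3 and 13.1 CPM to 7.34 and 6.23 CPM with anti-GDF8 (log2 fold change -1.06, adjusted p = 0.194). Frzb went from 17.8 and 16.5 to 13.9 and 7.23 CPM (-0.77, adjusted p = 0.455), and Sfrp5 from 4.50 and 3.84 to 1.95 and 1.05 CPM (-1.50, adjusted p = 0.263). These inhibitors and the receptor Fzd9 were lower in both ACLT pools than in both control pools. Lgr6 went from 24.6 and 18.0 to 13.6 and 8.89 CPM (-0.93, adjusted p = 0.281). Dkk2 was at 2.01 (adjusted p = 0.275) and Fzd2 at 1.56 (adjusted p = 0.244). Axin2 had 0.487 and 0.555 CPM in control limbs and 1.05 and 1.00 CPM in ACLT limbs, with no overlap and a log2 fold change of 0.92 that did not pass (adjusted p = 0.651). Of the 66 tested genes in the 5 surrounding lists, Cthrc1 alone was called with anti-GDF8 (0.598% of all tested genes were called higher and 0.0115% lower), going from 2.62 and 7.52 CPM to 55.4 and 59.5 CPM (3.68, adjusted p = 0.0196).

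Between the treatments, no member was called in ACLT limbs, but 33 of the 37 tested members had a negative log2 fold change for anti-GDF8 against placebo, beside 61.2% of all tested genes. No gene of the table was called in this comparison (percent called 0%), and the count of 0 members stands beside 11 at an unadjusted p under 0.05 (17.3% of all genes) and 0 with voom weights. The lowest adjusted p of a member was 0.152. Both anti-GDF8 pools lay below both placebo pools for 20 members (35.6% of all genes) and above them for none (16.3%). The median log2 fold change was -0.58 over the members and -0.11 over all genes. Several lists of cell type markers had similar or lower medians. These were -0.65 for osteoblast and osteocyte, -0.56 for macrophage, -0.53 for endothelial, -0.97 for smooth muscle and pericyte, and -0.86 for B cell markers. T cell markers were at -0.06, neutrophil markers at 0.17 and erythroid markers at 0.50. A median of this size was thus not particular to the members. With rescaling by a trimmed mean 31 members were negative and 16 lower in both pools (29.1% of all genes), and with quantile normalization these were 31 and 16 (27.0%), with 2 members higher in both pools. By class, 8 of 10 inhibitors, 9 of 11 receptors, 7 of 7 R-spondins and LGR receptors, 6 of 6 ligands and all 3 nuclear-response genes were negative.

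The 11 members with an unadjusted p under 0.05 were Tcf7, Sfrp2, Wnt5a, Rspo2, Fzd8, Wif1, Fzd6, Dkk3, Fzd2, Wnt5b and Sfrp1, all negative, and their adjusted p-values ran from 0.152 to 0.260. Tcf7 had 12.5 and 14.5 CPM with placebo and 8.35 and 5.37 CPM with anti-GDF8 (log2 fold change -0.997, adjusted p = 0.152). Sfrp2 was lower at -1.59 (adjusted p = 0.153), Wnt5a at -1.51 (adjusted p = 0.155) and Rspo2 at -1.38 (adjusted p = 0.165). Each of these had both anti-GDF8 pools below both placebo pools. Wif1 had 110 and 91.4 CPM with placebo and 73.6 and 39.2 CPM with anti-GDF8 (-0.90, adjusted p = 0.180), and without anti-GDF8 ACLT pool A it was called (-1.35, adjusted p = 0.0172). Sost and Frzb were the inhibitors with positive values, at 0.49 (95% interval -0.46 to 1.45) and 0.21 (-0.50 to 0.93), and Lrp5 and Fzd3 the receptors, at 0.24 and 0.28. Fibroblast markers were also lower in the anti-GDF8 ACLT pools, 10 of 10 with a negative value at a median of -0.96 and 8 of 10 lower in both pools. The 10 chondrocyte markers were lower in both pools with a median of -1.03, and the 12 muscle fiber markers higher with a median of 4.10. Whether these shifts have a part in the lower Wnt values was not tested. This comparison shares the placebo ACLT pools with the placebo injury comparison, so the 2 sets of values are not independent.

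**Figure D4:**
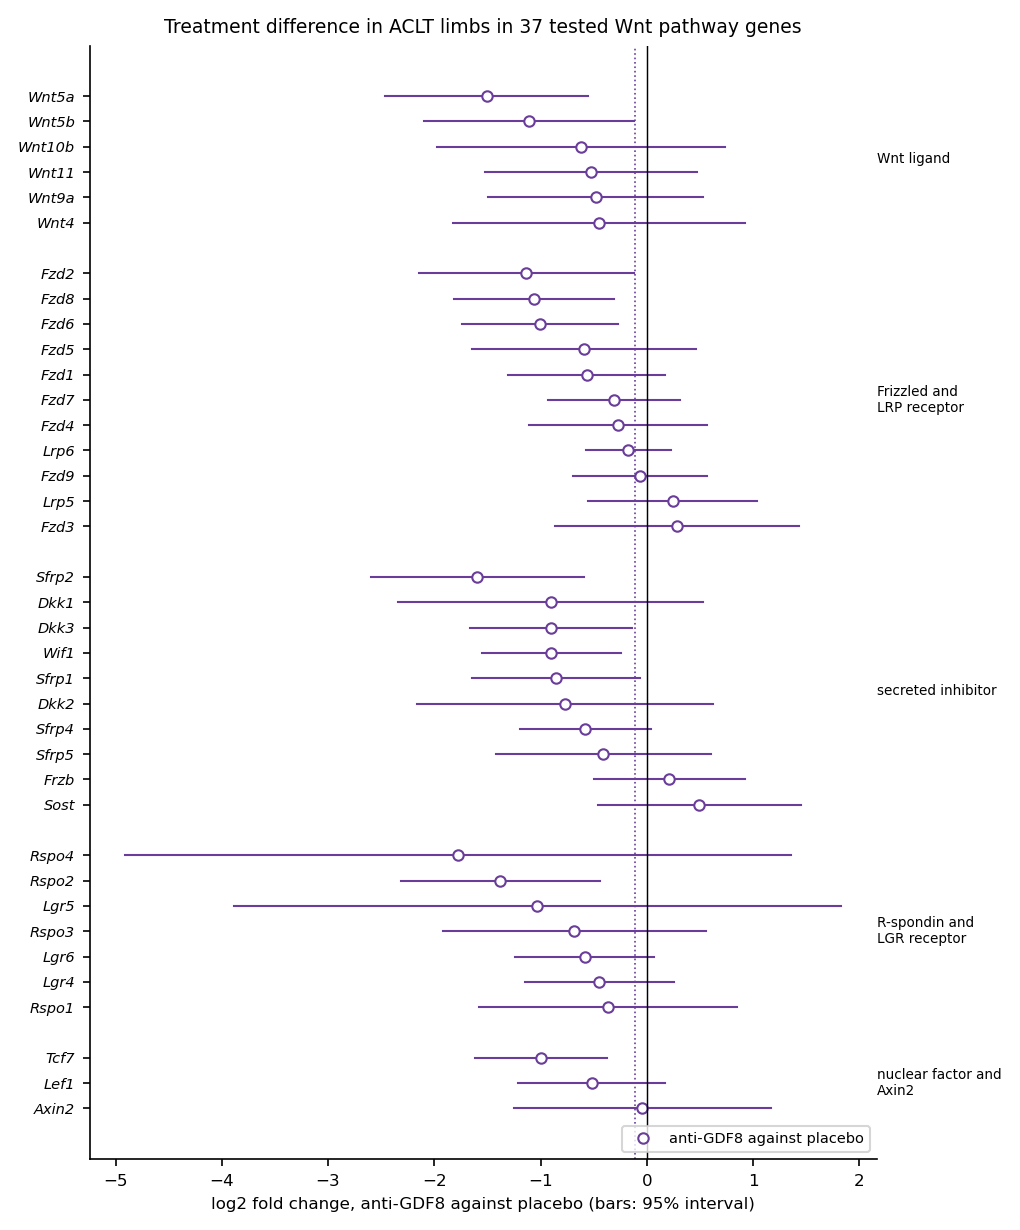
Log2 fold change of anti-GDF8 against placebo in ACLT limbs for the 37 tested members, by class (circles, estimate; bars, 95% intervals; open circles, not called; dotted line, median of all tested genes at -0.11). Circles of 33 members lie below 0 and those of Sost, Frzb, Lrp5 and Fzd3 above it.

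In control limbs, with limma, 0 members were called for anti-GDF8 against placebo (0% of all genes), 5 had an unadjusted p under 0.05 (4.55% of all genes), and with voom weights 0 were called. Those with an unadjusted p under 0.05 were Wnt10b at 2.42, Lef1 at -1.16, Sfrp1 at -1.10, Fzd2 at -1.34 and Lgr5 at -2.95, each with an adjusted p of 0.891. The pools of Lgr5 overlapped, with 62 and 8 reads in placebo control pools A and B against 0 and 6 reads in anti-GDF8 control. Of 37 members 19 were negative (36.9% of all genes), with a median of -0.07, and both anti-GDF8 pools lay above both placebo pools for 5 members (23.9% of all genes) and below them for 9 (11%). With rescaling by a trimmed mean 23 members were negative (50.4% of all genes) at a median of -0.17, with 12 lower and 4 higher in both pools (17.8% and 16.6% of all genes), and quantile normalization gave 13 lower and 4 higher (14.9% and 19.9%). Without placebo control pool B 25 members were negative (52.3% of all genes) at a median of -0.23. Wnt10b had 0.0994 and 0.107 CPM in placebo control against 0.730 and 0.808 CPM in anti-GDF8 control, so that the group that stood apart was placebo control and the other 6 libraries lay between 0.452 and 0.947 CPM. Lef1, a partner of beta-catenin in the nucleus, had 9.22 and 8.38 CPM against 4.36 and 3.50 CPM.

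The drug × injury interaction tested whether ACLT changed a gene differently under the 2 antibodies. No member was called (0% of all genes), 4 had an unadjusted p under 0.05 (10.3% of all genes), and voom weights gave 0. These 4 were Wnt10b at -3.04 ± 0.84 SE (adjusted p = 0.449), Dkk3 at -1.42 ± 0.47 SE (adjusted p = 0.451), Tcf7 at -1.04 ± 0.39 SE (adjusted p = 0.467) and Fzd6 at -1.08 ± 0.46 SE (adjusted p = 0.478). Negative values mean a smaller rise or a larger fall with anti-GDF8. They were found for 26 of 37 members, beside 67.5% of all tested genes, with medians of -0.46 and -0.21. With rescaling by a trimmed mean these were 24 members, 53.4% of all tested genes, and medians of -0.29 and -0.04, and without placebo ACLT pool A the members' median was -0.30. For Sfrp2 the interaction was -1.02 with a 95% interval of -2.44 to 0.40, and for Sost it was 0.25 (-1.10 to 1.60). Members called under placebo alone are therefore not shown to differ between treatments.

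Summed over their genes, the secreted inhibitors made up 175 ± 50.4 CPM (SD, n = 2 pools) in control limbs and 420 ± 41.6 CPM in ACLT limbs with placebo, against 159 ± 0.455 and 257 ± 9.76 CPM in the anti-GDF8 groups. The ACLT pools lay above the control pools under each antibody. Ligands summed to 18.3 ± 2.83 and 33.1 ± 2.68 CPM with placebo and to 15.98 ± 2.01 and 18.2 ± 4.02 CPM with anti-GDF8. R-spondins and LGR receptors stood at 39.9 ± 7.94 and 63.9 ± 3.38 CPM with placebo and at 37.1 ± 1.72 and 34.9 ± 1.59 CPM with anti-GDF8. Receptors stood at 99.7 ± 3.10 and 126 ± 3.54 CPM with placebo and at 104 ± 4.67 and 98.8 ± 3.62 CPM with anti-GDF8. The nuclear-response genes stood at 17.7 ± 0.353 and 22.7 ± 4.08 CPM with placebo and at 12.6 ± 1.75 and 13.4 ± 2.70 CPM with anti-GDF8. In every class the placebo ACLT pools lay above all other pools. Sums weigh long and abundant genes most and were not tested. Sfrp4 took 21.4% of the inhibitor sum in placebo control and 45.1% in placebo ACLT, and 20.6% and 49.3% in the anti-GDF8 groups, while the share of Wif1 went from 47.9% to 23.9% and from 41.8% to 22.0%.

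**Figure D5:**
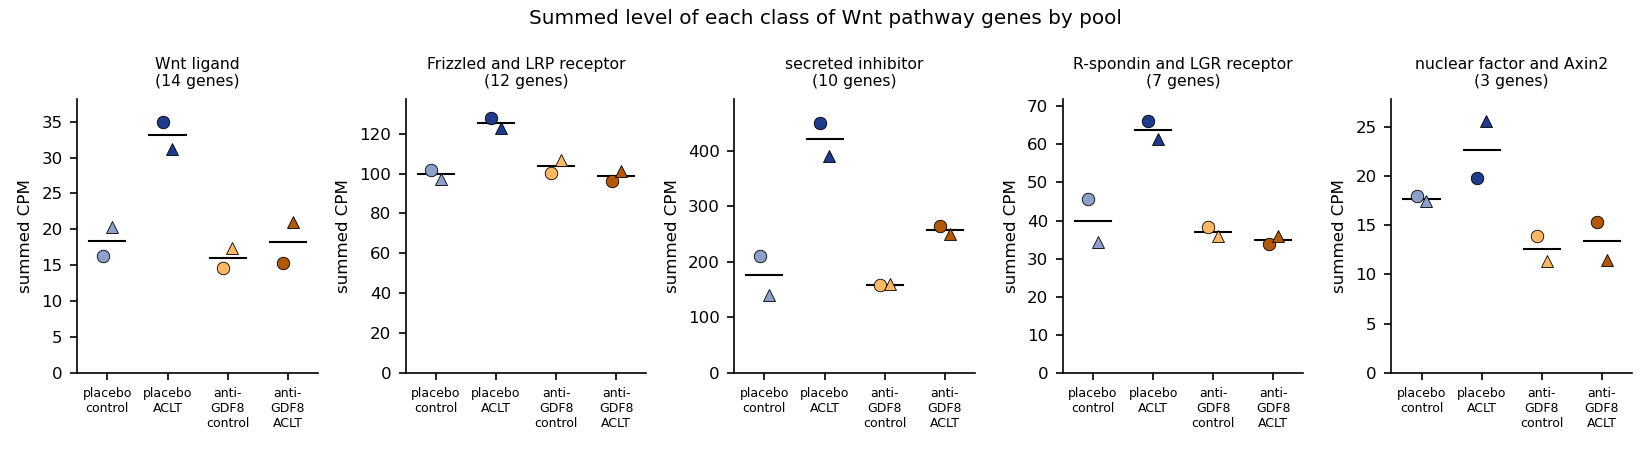
Summed CPM of each class of members in each group (circle, pool A; triangle, pool B; horizontal line, mean of 2 pools; axes start at 0). In every panel the placebo ACLT pools stand above the rest. In the inhibitor panel they average 420 CPM and the anti-GDF8 ACLT pools 257 CPM, and there the latter also lie above all control pools.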

How the data were processed

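RNA of articular cartilage was sequenced in 8 libraries, 2 pools in each of 4 groups. The authors deposited CPM (every column sums to 1e+06), and among tools the authors name Partek, DESeq2 and STAR 2.7.3a, and among builds mm39 and mm10, in processing notes that state no roles. Gene coordinates are given as mm39, since 2.23% of 20494 matched genes share their start with GENCODE M21 (GRCm38) and 98.3% their span length. Every gene of the table has at least 10 reads in some library. Exon lengths came from GENCODE M21.

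The members and gene lists were chosen with earlier results of these data known. Groups follow the labels and replicates the pool letters. Depth was read from the CPM of 1 read, the smallest value that at least 50 genes share. Of values under 200 reads, 69.7% to 75.4% were whole (tolerance 0.02 of a read), which is too few to recover whole reads, and no count test was made. CPM was multiplied by the median depth, 1 read (0.0498 CPM) added and log2 taken. The 4 group means were estimated together from all 8 libraries in limma 3.58.1 (R 4.3.3), with eBayes moderation along the mean level (degrees of freedom 4 residual, 4.74 prior), with Benjamini-Hochberg adjustment over 17401 genes. The script was tested on simulated data. Named in full are members called in any comparison and the member of each class with the highest mean CPM; others appear by range, count or value. Up to 4 genes per surrounding list are named by smallest adjusted p with placebo. Promoters came from RefSeq (GRCm38.p6).

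Alternatives were other pseudocounts and filters, trimmed mean and quantile scaling, CPM without muscle fiber and erythroid markers, fits without a trend, robust, with voom weights or with only the libraries compared, replicate blocks, and each library left out. Python 3.11.15, pandas 2.3.3, numpy 2.4.6 and matplotlib 3.10.9 were used for tables and figures.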

Additional observations from a re-analysis of the deposited data

How the results depend on the processing

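The 9 members called after ACLT with placebo were 8 to 11 under every alternative that kept all libraries, and the same 9 passed with CPM computed without muscle fiber and erythroid markers. With 1 library left out the count ranged from 3 to 11. The 2 members called with anti-GDF8 became 0 without an intensity trend, 1 with voom weights and 1 with only the libraries compared, and ranged from 0 to 2 with 1 library left out. In ACLT limbs the treatment count was 0, with a range of 0 to 1 when a library was left out. In control limbs and in the interaction it was 0 throughout. No named member changed sign while called. A replicate block by pool letter, by title number or by letter within treatment left these counts at 9, 2 and 0. Neither source says that letters or numbers pair pools, and they run against each other in anti-GDF8 control. Across genes, deviations of control and ACLT pools with the same letter correlated at 0.041 with placebo and 0.30 with anti-GDF8. Same-letter pools of different antibodies correlated at 0.0032 to 0.21. These values do not settle whether control and ACLT pools are paired by mouse, and the main fit treats them as unpaired. The fit with only the libraries compared gives no interaction, and the block within treatment no treatment comparison. With 2 pools per group, a gene at 2 to 3 reads such as Wnt10b in placebo control is limited by counting. The cause of the lost calls was not tested.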
